A study of Homo sapiens with 44 samples.

Results

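The suppressor of cytokine signaling (SOCS) family was followed in Ccd-18Co, an established human colon fibroblast line, after single-cytokine stimulation. Its members were taken as the row symbols SOCS1, SOCS2, SOCS3, SOCS4, SOCS5, SOCS6 and CISH of the gene-level RNA-seq count table, which gave 7 of 40663 symbols. Cells of every group were kept in serum-free medium for 72 h and lysed 24 h later. During those 24 h they received no cytokine (unstimulated), 0.1 ng/ml IL-1β, or 10 ng/ml of TNF, IL-6, IL-13, IL-17A, oncostatin M (OSM), TGF-β1, IL-22, IFNγ or IFNα. The IL-1β dose is that of the labels and the methods, and a legend of the study names a lower one for the same experiment. Each of the 11 groups had 4 libraries. A single cell line without epithelial or immune partners, read at a single time, limits the experiment as a model of intestinal stroma.

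SOCS proteins close the negative feedback loop of cytokine receptors that signal through Janus kinases (JAKs) and STAT transcription factors. Active STATs switch on SOCS genes. The proteins then bind phosphorylated receptors or kinases through an SH2 domain, and their SOCS box recruits elongins B and C and a cullin ubiquitin ligase that marks the bound partner for degradation. CISH, SOCS1, SOCS2 and SOCS3 are the classic cytokine-induced members. SOCS4, SOCS5 and SOCS6 have long amino-terminal regions and are mostly linked to receptor tyrosine kinases such as the EGF and insulin receptors. In fibroblasts, these inhibitors set how long a cell keeps responding to interferons, to cytokines of the gp130 receptor family and to growth factors.

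At 24 h, SOCS2, SOCS3, SOCS5 and SOCS6 passed the test, each after 1 or 2 of the 10 cytokines, and SOCS4 after none. How many of all genes passed after at least 1 cytokine was not counted. The number of members that passed is therefore no result about the family. In bulk libraries a change in every cell and a change in the share of responding cells cannot be told apart. The largest difference was SOCS3 after OSM, 1.11 CPM (estimated counts scaled per 1e6 with the library's TMM factor) in unstimulated cells against 33.6 CPM. SOCS2 rose after IFNα and TNF, SOCS6 rose after IL-1β and SOCS5 fell after IL-13. Those SOCS6 and SOCS5 results were lost in 6 and 4 of the 8 fits that left out 1 library. SOCS1 and CISH were at or near 0 counts in most libraries, with their highest group means after IL-13. Of 50 tests of 5 members against 10 cytokines, 5 passed (4 higher, 1 lower). Across all genes tested in the same 10 comparisons 5.45% of tests passed (2.55% higher, 2.89% lower). A test passed at an adjusted p under 0.05 in edgeR's quasi-likelihood test over the 9513 genes that cleared a low-count filter. SOCS3 cleared that filter only through the OSM libraries, where it was high, so its call there is a description. The other 4 members passed in 4 of 40 tests (3 higher, 1 lower). Adding the study's fold threshold, an absolute log2 fold change above 1.5, left 3 of the 5 (1.94% over all genes).

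The libraries were shallow, with totals from 742173 to 2213424 estimated counts (median 1480883). A floor of 3 counts corresponded to 1.39 to 3.85 CPM, which covers counting error only. All 10 fibroblast markers (COL1A1, PDGFRA and others) cleared the filter. Of 4 endothelial markers 0 cleared it, of 6 immune markers 1 (CD68) and of 5 epithelial markers 1 (VIL1). Of 4 muscle markers 3 cleared it. ACTG2 was at 216 to 1093 CPM and CNN1 at 2.54 to 44.7 CPM over the 44 libraries, MYH11 at 0 to 14.7 CPM, and DES had 4 counts in total. Of 6 response genes chosen as checks on the cytokines, such as MX1 for interferons and CCL26 for IL-13, 6 changed after at least 1 cytokine and 0 after IL-22, TGF-β1 or OSM. The labels give replicates without saying whether they were separate cultures, so p-values measure the spread between these libraries, which may be technical.

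**Figure D1:**
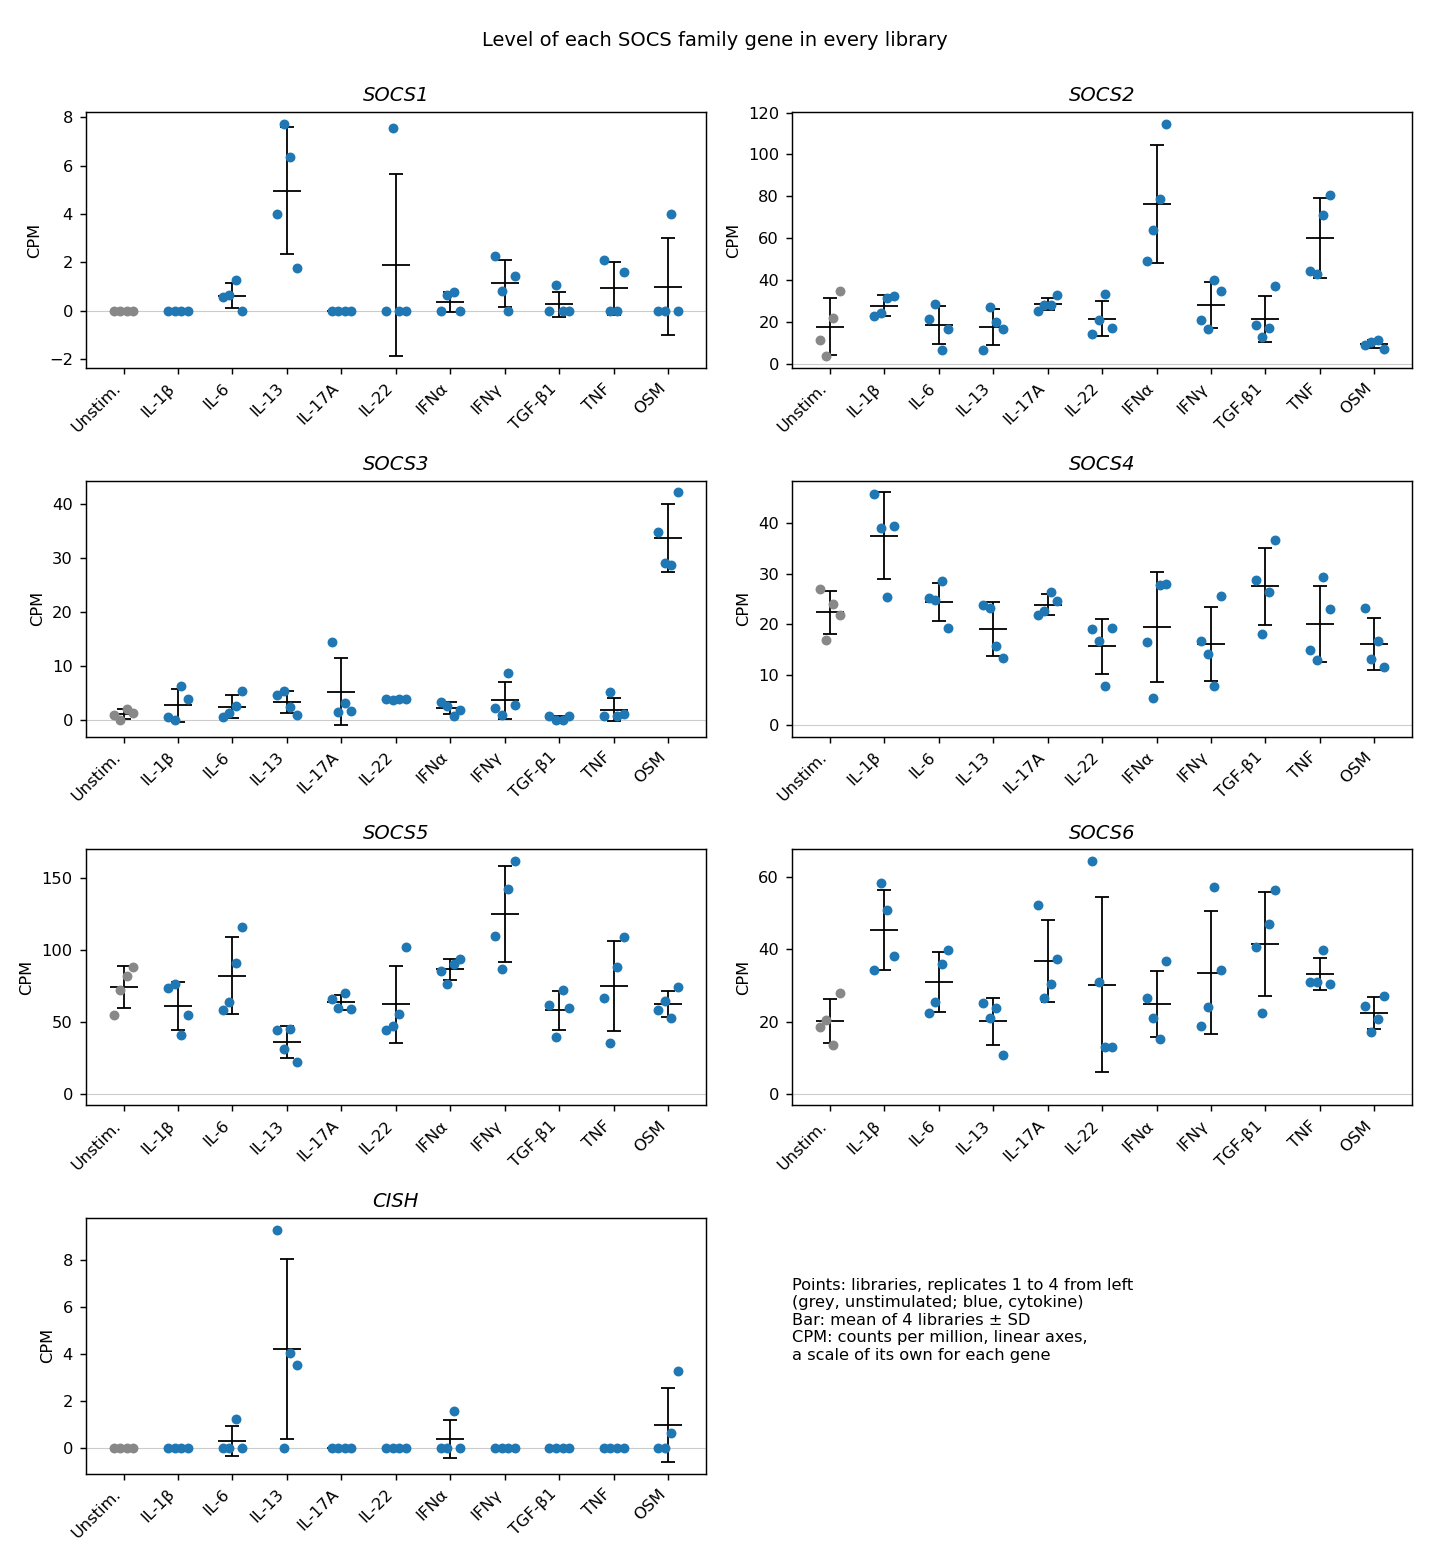
CPM of each SOCS family gene (linear y axes, a scale for each gene) in all 44 libraries by group (x axis), with grey points for unstimulated and blue points for cytokine-treated libraries, and the mean ± SD of 4 libraries as a bar. The 4 OSM libraries lie at 28.7 to 42.1 CPM for SOCS3, above every other library, whereas SOCS1 and CISH stay below 10 CPM throughout.

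CISH, which is known as a STAT5 target that acts on receptors of the growth hormone and interleukin families, had 34 counts in total and was at 0 in 37 of 44 libraries. Its counts after IL-13 were 14, 0, 7 and 4 in replicates 1 to 4, against 0 in each unstimulated library. Elsewhere it had 0, 0, 1 and 4 counts after OSM, 2 counts in 1 IL-6 library, 2 counts in 1 IFNα library and none in the other 7 groups. The IL-13 libraries thus overlapped the unstimulated ones through replicate 2, at 0. A 2-sided exact permutation test on CPM gave p = 0.143 for IL-13 (4 against 4, 70 divisions), and 0.715 after adjustment over 20 tests.

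SOCS1, the strongest brake on interferon receptors and their JAKs, had 64 counts in total and was detected in 17 of 44 libraries. It was at 0 in all 4 libraries of the unstimulated, IL-1β and IL-17A groups. After IL-13 its counts were 6, 10, 11 and 2, or 3.98, 7.72, 6.35 and 1.78 CPM. All 4 IL-13 libraries were above all 4 unstimulated libraries, and the mean of 4.96 ± 2.62 CPM (SD, n = 4) was at least 2.27-fold higher than the floor of 3 counts in the shallowest unstimulated library. IL-13 replicate 4, with 2 counts, was itself under the floor of 3 counts. The exact permutation p was 0.0286, the smallest that 4 against 4 allows, and 0.572 after adjustment over 20 tests. A single test at this smallest p cannot pass after that adjustment, so no conclusion is drawn from the adjusted values of SOCS1 and CISH. When every gene with a count was kept, edgeR called SOCS1 after IL-13 (adjusted p = 0.0253 over 23518 genes) and did not call CISH (adjusted p = 0.0645). That fit was chosen after seeing the data, and SOCS1 was at 0 in every unstimulated library. The call is therefore a description.

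The remaining SOCS1 counts were few. After IFNγ, the interferon for which SOCS1 is best known, replicates 1 to 4 had 3, 1, 0 and 2 counts, at or under the floor (edgeR with every gene kept, adjusted p = 0.227). IFNα gave 0, 1, 1 and 0 counts. In 2 groups a single library carried all the counts, with 10 in IL-22 replicate 2 and 6 in OSM replicate 3. At this depth a change of SOCS1 below the floor was not detectable.

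The sequence before the CISH and SOCS1 start sites is shown because these low-count members had their highest group means after the same cytokine, IL-13, whose receptor acts through STAT6. A RefSeq window was matched for 5 of the 7 members (SOCS1, SOCS3, SOCS4, SOCS6 and CISH, GRCh38.p14). The 250 bases before the start are given 5′ to 3′ on the gene's strand, at chr3:50611775-50612024 (minus strand) for CISH and chr16:11256205-11256454 (minus strand) for SOCS1. Capitals mark matches to TTCNNNGAA, the palindromic STAT-type motif, in CISH, and to the core repeat of interferon-stimulated response elements in SOCS1.
CISH: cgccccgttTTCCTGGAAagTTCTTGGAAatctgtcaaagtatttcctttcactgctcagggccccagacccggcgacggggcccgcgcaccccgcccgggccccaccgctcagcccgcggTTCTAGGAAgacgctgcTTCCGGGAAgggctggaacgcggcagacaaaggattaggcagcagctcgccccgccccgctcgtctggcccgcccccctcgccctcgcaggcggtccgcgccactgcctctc
SOCS1: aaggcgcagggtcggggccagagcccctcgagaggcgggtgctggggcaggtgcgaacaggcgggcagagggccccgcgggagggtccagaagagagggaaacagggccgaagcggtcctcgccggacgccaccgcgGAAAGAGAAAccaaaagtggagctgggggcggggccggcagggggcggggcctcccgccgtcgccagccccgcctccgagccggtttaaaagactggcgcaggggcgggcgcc
The CISH window held 4 matches to TTCNNNGAA, beginning 241, 230, 129 and 112 bases before the start. Among 35116 RefSeq windows (250 bases before to 50 after a start), 7.66% held at least 1 such match on either strand and 0.0199% held 4 or more. The cut of 4 is the number found in CISH itself, so the latter share is a description. The SOCS1 window held no TTCNNNGAA and 1 match to the interferon-stimulated response element repeat, GAAAGAGAAA 113 bases before the start, a motif found in 3.57% of windows. Neither the CISH nor the SOCS1 window held TTCNNNGAA with 1 more base between its arms, the spacing that STAT6 prefers (6.44% of windows). The SOCS4 and SOCS6 windows held none of the 3 motifs. The 2 SOCS3 windows of the table held none either, but they begin from starts at −848 and 410 bases from the main GENCODE start, and the sequence before that main start was not analysed here. These are matches of letters, and no binding was measured.

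SOCS3, the inhibitor that docks on gp130 and limits IL-6, leukemia inhibitory factor and OSM signaling, was nearly absent without cytokine and abundant after OSM. Unstimulated replicates 1 to 4 had 2, 0, 3 and 2 counts, and OSM replicates 57, 49, 43 and 51 counts. On the CPM scale these were 0.979, 0, 2.11 and 1.37 against 34.7, 29.1, 28.7 and 42.1. The lowest OSM library was above the highest library of any other group, IL-17A replicate 1 at 14.4 CPM. The log2 fold change was 4.81 (SE 0.86, adjusted p = 0.00022, edgeR), in a comparison where 3.96% of genes passed. Of the 7 libraries with at least 10 SOCS3 counts 4 were the OSM libraries, so the gene entered the test through the group where it was high. Because the unstimulated sum was 7 counts, the depth-scaled ratio of summed counts, 29.8, had an exact 95% interval of 14.2 to 75.1, for counting error only.

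The SOCS3 level after OSM was higher than in each of the 10 other groups, by 2.61 to 6.06 on the log2 scale (adjusted p from 2.54e-05 to 0.0193; over all 55 pairs of groups and all genes 7.88% of tests passed). Since SOCS3 entered the test through the OSM libraries, its comparisons with OSM, that of IL-6 included, are descriptions. Below OSM, group means were 5.22 CPM for IL-17A, 3.81 for IL-22, 3.65 for IFNγ, 3.31 for IL-13, 2.69 for IL-1β, 2.46 for IL-6, 2.15 for IFNα, 1.92 for TNF, 1.11 for unstimulated and 0.378 for TGF-β1. Among the 10 pairs of neighbors in this order only OSM and IL-17A differed. That call (2.61, adjusted p = 0.0193; 7.47% of genes passed) was lost without IL-17A replicate 2, 3 or 4 (adjusted p = 0.0739, 0.0547 and 0.078), and the adjusted p was 0.00273 without IL-17A replicate 1. The IL-17A mean came mostly from replicate 1 with 31 counts against 2, 4 and 3 in the others, and IL-17A against unstimulated did not pass (2.20, SE 0.86, adjusted p = 0.232; 1.52% of genes passed). TGF-β1, with 1, 0, 0 and 1 counts, was below IL-17A (−3.45, adjusted p = 0.0339), where 6.08% of genes passed. It was not separable from unstimulated (−1.25, SE 1.18). The difference from IL-17A was not refitted without single libraries, so how far it rests on IL-17A replicate 1 was not tested.

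OSM and IL-6 share the gp130 chain, encoded by IL6ST, and were compared directly. SOCS3 had 1, 2, 4 and 9 counts after IL-6, and OSM exceeded IL-6 by 3.73 on the log2 scale (SE 0.79, adjusted p = 0.0025; 2.67% of genes passed). SOCS3 was the 1 tested member of 5 that differed between both cytokines. SOCS2 was 9.64 ± 1.74 CPM after OSM and 18.6 ± 9.15 CPM after IL-6 (−0.93, SE 0.45, adjusted p = 0.385). Receptor chains were present at unequal levels in unstimulated cells. Per kilobase of exon, IL6ST was at 59.1 CPM, OSMR at 4.36, LIFR at 1.89 and IL6R, the chain that binds IL-6, at 0.316, from 15 counts over 4 libraries. The part of these levels in the SOCS3 difference was not tested. IL-6 changed 0 of the 5 tested members, with 0 at an unadjusted p under 0.05, and 1 of all 9513 genes (CCL11, 0.0105%).

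SOCS2, an inhibitor of growth hormone receptor signaling, was expressed in every library and rose after 2 cytokines of different receptor classes. Unstimulated replicates were at 11.3, 3.65, 21.8 and 34.8 CPM, a wide spread around 17.9 CPM. IFNα replicates were at 49.0, 63.9, 78.6 and 115 CPM, all above the unstimulated libraries (log2 fold change 2.10, SE 0.42, adjusted p = 0.00026; 9.85% of genes passed). TNF replicates were at 44.5, 43.1, 71.3 and 80.9 CPM, again without overlap (1.75, SE 0.42, adjusted p = 0.0028; 11.5% passed). IFNα and TNF did not differ from each other beyond the spread (0.35, adjusted p = 0.644). The summed level of the 6 immune markers, nearly all CD68, was 36.1 to 73.8 CPM in the IFNα libraries against 0 to 9.30 in unstimulated and 4.94 to 15.8 in TNF libraries, while CD3E, MS4A1 and CD79A were at 0 in all 44 libraries. Its part in the SOCS2 result was not tested.

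In its full order SOCS2 averaged 76.5 CPM after IFNα, 59.9 after TNF, 28.6 after IL-17A, 28.1 after IFNγ, 27.9 after IL-1β, 21.5 after both IL-22 and TGF-β1, 18.6 after IL-6, 17.9 in unstimulated cells, 17.7 after IL-13 and 9.64 after OSM. None of the 10 neighboring pairs differed, while 18 of the 55 pairs of groups did (7.88% of tests over all genes and pairs passed). IFNα was above 9 of the 10 other groups (9.39% to 15.9% of genes passed in its pairs) and TNF above 6 (1.15% to 17.1%). OSM was the lowest group, at 9.13, 10.7, 11.3 and 7.42 CPM, and was below IFNα, TNF, IL-1β, IL-17A and IFNγ (2.67% to 12% of genes passed in the pairs with OSM). OSM was not separable from unstimulated cells, whose replicate 2 was lower still (−0.87, adjusted p = 0.357).

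The 2 interferons differed in SOCS2. IFNγ replicates were at 21.1, 16.6, 39.9 and 34.9 CPM, below all IFNα libraries, and IFNα exceeded IFNγ by 1.44 (SE 0.41, adjusted p = 0.0154; 9.39% of genes passed). Leaving out IFNα replicate 4, IFNγ replicate 1 or IFNγ replicate 2 moved the adjusted p to 0.0967, 0.0561 and 0.0602. SOCS2 was again the 1 tested member of 5 that differed. For TNF against IL-1β, 2 inflammatory cytokines that both act through NF-κB, 0 of 5 members differed in edgeR over all libraries (1.15% of genes passed), with SOCS2 and SOCS4 at an unadjusted p under 0.05. There SOCS2 was higher after TNF (1.11, SE 0.40, adjusted p = 0.205) and SOCS4 higher after IL-1β (−0.90 for TNF over IL-1β, SE 0.35, adjusted p = 0.267).

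The 7 genes lie on 7 chromosomes (GRCh38), SOCS1 at chr16:11254417-11256204, SOCS2 at chr12:93569814-93583487, SOCS3 at chr17:78356778-78360077, SOCS4 at chr14:55027230-55049489, SOCS5 at chr2:46698952-46780245, SOCS6 at chr18:70289045-70330199 and CISH at chr3:50606489-50611774. SOCS1, SOCS3 and CISH are read from the minus strand. SOCS2 shares 277 bases of exon with SOCS2-AS1 on the opposite strand. The default settings of kallisto, which made the counts, do not use strand, so reads in the shared bases cannot be told apart. SOCS2-AS1 averaged 1.00 CPM in unstimulated cells, 6.31 after IFNα and 3.36 after TNF, and its part in the SOCS2 counts was not tested. SOCS1 lies within an intron of RMI2, LINC01118 shares 160 exon bases with SOCS5 on the same strand, and MAPKAPK3 shares 218 with CISH on the opposite strand. LINC01118 had 5 counts in all 44 libraries. MAPKAPK3 had at most 5.73 CPM as a group mean (after IL-6), above the highest CISH group mean of 4.22 CPM (after IL-13).

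**Figure D2:**
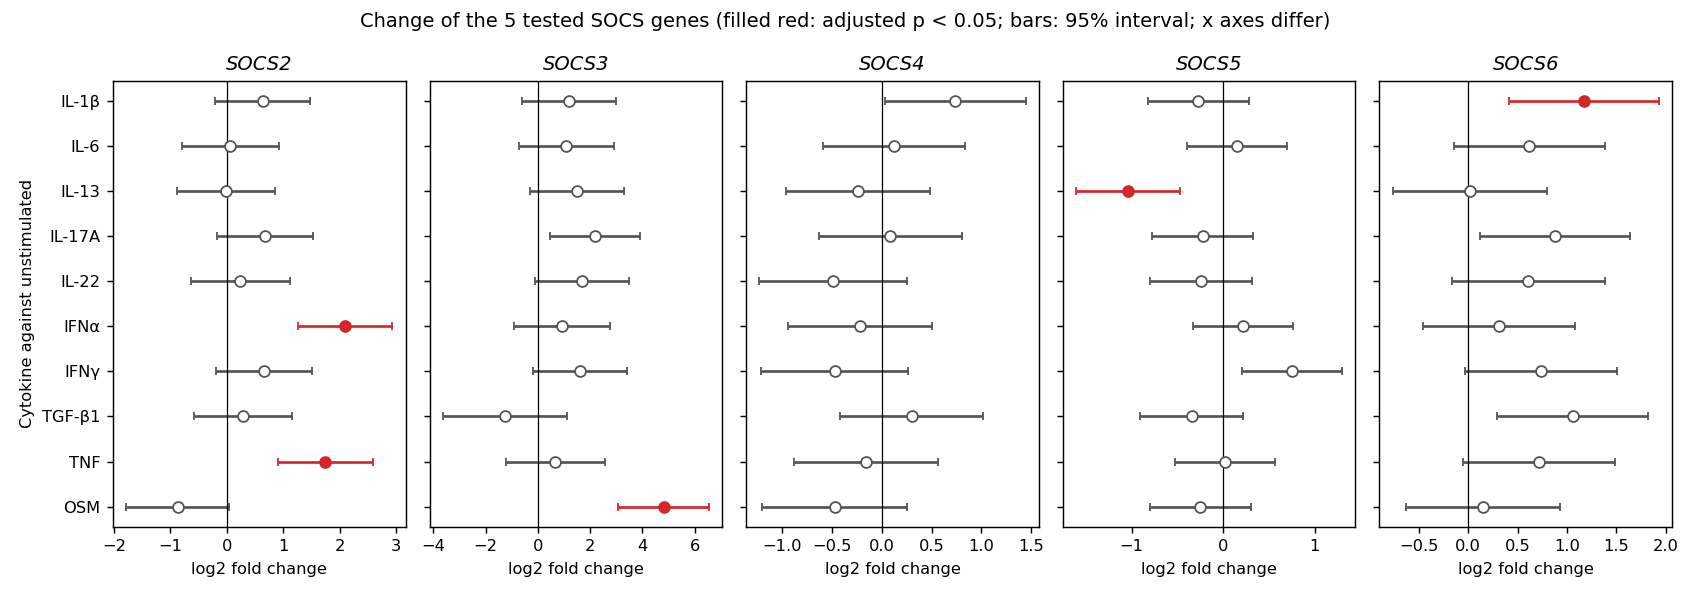
Log2 fold change (x axis, a scale for each gene) of the 5 tested SOCS genes after each of the 10 cytokines (y axis) against unstimulated, with 95% intervals; filled red points passed at an adjusted p under 0.05. Only 5 points are filled, 2 for SOCS2 and 1 each for SOCS3, SOCS5 and SOCS6, and none for SOCS4.

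SOCS5, a long-tailed member linked to the EGF receptor and to IL-4 receptor signaling, was the most abundant member per kilobase in unstimulated cells, and had its lowest level after IL-13 and its highest after IFNγ. Unstimulated replicates were at 54.8, 72.2, 81.6 and 88.1 CPM. IL-13 replicates were at 44.5, 30.9, 45.0 and 22.2 CPM, all below them, and SOCS5 fell by 1.04 on the log2 scale (SE 0.28, adjusted p = 0.0239; 3.93% of genes passed). The call was lost without unstimulated replicate 3 or 4 or IL-13 replicate 2 or 4, with adjusted p from 0.0636 to 0.132. IFNγ replicates were at 109, 86.4, 142 and 162 CPM, and 0.75 above unstimulated (SE 0.27, adjusted p = 0.0634; 10.6% of genes passed), with overlap through replicate 2. That comparison passed with DESeq2 size factors (adjusted p = 0.0438), with the DESeq2 Wald test (0.0336), with the replicate block (0.0445) and without IFNγ replicate 2 (0.0199).

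Compared directly, IFNγ exceeded IL-13 by 1.79 in SOCS5 (SE 0.28, adjusted p = 5.94e-06; 15.8% of genes passed), with no overlap of libraries. IFNγ was above 6 of the 10 other groups, IL-1β, IL-13, IL-17A, IL-22, TGF-β1 and OSM. IL-13 was below 5 of them, unstimulated, IL-6, IFNα, IFNγ and TNF. Over all genes, 7.02% to 15.8% passed in the pairs with IFNγ and 3.1% to 17.1% in those with IL-13. Between both ends the means were 86.2 CPM for IFNα, 82.0 for IL-6, 74.5 for TNF, 74.2 for unstimulated, 63.4 for IL-17A, 62.2 for OSM, 61.9 for IL-22, 61.1 for IL-1β and 58.0 for TGF-β1, and no neighbors in the order differed. SOCS5 pseudogenes were at 0 except for 1 count of SOCS5P4.

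SOCS6, which binds the insulin receptor pathway and the KIT receptor, rose after IL-1β from 18.6, 20.4, 13.4 and 28.0 CPM in unstimulated replicates to 34.3, 58.3, 50.8 and 38.3 CPM. The groups did not overlap, and the log2 fold change was 1.17 (SE 0.38, adjusted p = 0.0446; 7.38% of genes passed). This call was close to the threshold and was lost without any of 6 of the 8 libraries (unstimulated replicates 1, 2 and 3 and IL-1β replicates 2, 3 and 4, adjusted p from 0.0553 to 0.135). TGF-β1 gave 40.6, 22.3, 47.2 and 56.5 CPM (1.06, SE 0.38, adjusted p = 0.0925; 0.0454 with the DESeq2 Wald test). IL-17A gave 52.4, 26.5, 30.4 and 37.3 CPM (0.88, adjusted p = 0.302).

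The order of SOCS6 ran from 45.4 CPM after IL-1β over 41.6 after TGF-β1, 36.7 after IL-17A, 33.6 after IFNγ, 33.1 after TNF, 30.9 after IL-6, 30.3 after IL-22, 24.8 after IFNα and 22.4 after OSM to 20.1 in both unstimulated and IL-13 cells. No neighbors differed, and 2 of 55 pairs did, IL-1β against unstimulated and against IL-13 (7.88% of tests over all genes and pairs passed). The IL-22 mean joined unlike libraries, at 64.6, 30.9, 12.8 and 12.8 CPM.

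SOCS4, a relative of SOCS5 that also targets the EGF receptor, did not pass after any of the 10 cytokines. IL-1β had the highest values, 45.9, 39.1, 25.4 and 39.6 CPM against 26.9, 16.8, 23.9 and 21.9 CPM in unstimulated cells, with overlap through IL-1β replicate 3 (0.74, SE 0.35, adjusted p = 0.256). The other groups averaged from 15.6 CPM after IL-22 to 27.5 CPM after TGF-β1. Between cytokines, IL-1β was above IL-22, IFNγ and OSM (adjusted p from 0.0192 to 0.0285), the 3 pairs of 55 that differed. Over all genes and pairs 7.88% of tests passed.

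By cytokine, IL-1β, IL-13, IFNα, TNF and OSM each changed 1 of the 5 tested members. Over all genes 7.38%, 3.93%, 9.85%, 11.5% and 3.96% passed after these cytokines, in that order. The member called after OSM was SOCS3, which entered the test through the OSM libraries. For IL-6, IL-17A, IL-22, IFNγ and TGF-β1 edgeR called 0 of 5, with 0, 2, 0, 1 and 1 members at an unadjusted p under 0.05. In the same comparisons 0.0105%, 1.52%, 0%, 10.6% and 5.69% of all genes passed. DESeq2's Wald test called 1 member after IFNγ (SOCS5), 1 after TGF-β1 (SOCS6) and none after IL-6, IL-17A or IL-22. It gave no adjusted p for SOCS3 after IL-17A and TGF-β1 and for 4 members after IL-22. The share of all genes that DESeq2 called in these comparisons was not computed. The receptor chain specific for IL-22, IL22RA1, had 1 count in all 44 libraries, and its part in the IL-22 result was not tested. All of these comparisons share the same 4 unstimulated libraries.

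To compare levels between genes, CPM were divided by the length of the annotated exons. In unstimulated cells SOCS5 was at 9.90 CPM per kb and made up 50.8% ± 7.03 (SD, n = 4) of the summed level of the 7 members. SOCS6 made up 17.7% ± 4.64, SOCS4 16.7% ± 4.75, SOCS2 12.8% ± 7.56 and SOCS3 1.97% ± 1.53. After OSM the leading member was SOCS3, at 12.3 CPM per kb and 42.2% ± 3.36, with SOCS5 at 28.7% ± 3.57. This order turned with the length of the longest annotated transcript in place of all exons, which put SOCS5 at 13.0 CPM per kb (37.3% ± 3.98) and SOCS3 at 12.3 (35.0% ± 2.97). In unstimulated cells that length gave SOCS5 57.3% ± 8.02, SOCS2 15.9% ± 9.07, SOCS6 13.1% ± 3.62 and SOCS4 12.3% ± 3.84, so that SOCS5 was first with both lengths and the order of the next 3 members was not fixed. With all exons, the SOCS2 share after IFNα was 36.9% ± 6.35, close to the 37.5% ± 5.08 of SOCS5, and after TNF it was 31.7% ± 2.62, beside 33.3% ± 7.08 for SOCS5. IL-13 was the 1 group where SOCS1 and CISH reached 14.3% ± 5.31 and 4.77% ± 3.81, while the SOCS5 share was 25.9% ± 4.67. The summed level ranged from 18.4 CPM per kb after IL-13 to 31.4 after IFNα, with 19.7 in unstimulated cells. These shares are descriptions without a test.

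**Figure D3:**
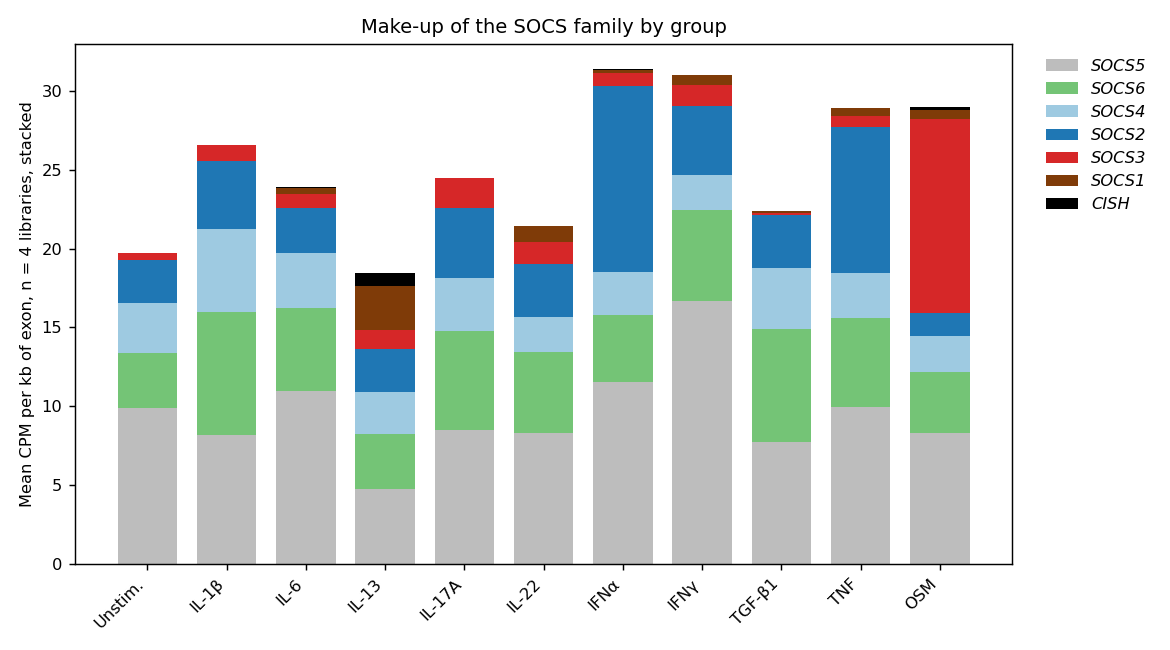
Mean CPM per kb of exon of the 7 SOCS family genes, stacked, in each group (n = 4 libraries a group). SOCS5 is the largest block in unstimulated cells, SOCS3 (red) reaches 12.3 CPM per kb after OSM (SOCS5 8.30), and SOCS2 (dark blue) 11.8 after IFNα beside 11.5 for SOCS5; with the longest transcript as length SOCS5 is above SOCS3 after OSM.

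Around the family, the kinases and STATs that SOCS proteins restrain had all their calls after the 2 interferons, comparisons where 9.85% (IFNα) and 10.6% (IFNγ) of all genes passed. These genes and those of the lists below were chosen with earlier results of these data known, so their shares of calls are descriptions. Of the 4 JAK genes 2 were tested, and JAK2 rose after IFNγ (12.5 to 46.7 CPM, log2 fold change 1.88, SE 0.45, adjusted p = 0.00359), the 1 call in 20 tests (5%, near the 5.45% over all genes and the 10 comparisons). Of 6 STAT genes described here 4 were tested, with 4 calls higher and 0 lower in 40 tests (10% higher, against 2.55% over all genes). STAT2 rose after both interferons, STAT6 after IFNα (1.62, adjusted p = 0.0483) and STAT3 after IFNγ (0.92, adjusted p = 0.0485). STAT5A and STAT4 were too low to test.

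Receptor chains gave 16 calls higher and 1 lower in 120 tests of 12 of 16 genes, or 13.3% higher and 0.833% lower, against 2.55% and 2.89% over all genes. Since this list too was chosen with earlier results known, no conclusion is drawn from that difference in shares. OSM, with 3.96% of all genes called, raised 4 of them, its own receptor chain OSMR (31.3 to 64.6 CPM, 1.04, SE 0.28, adjusted p = 0.021), IL6ST (0.88, adjusted p = 0.00716), IL13RA1 (1.68, adjusted p = 0.00243) and IFNGR1 (0.78, adjusted p = 0.0254). TNF raised IFNAR2 (2.28), IFNGR2 (1.36) and IFNAR1 (0.74), the interferon receptor chains, and IL13RA2 (3.57). IL-1β raised IFNAR1 (0.83), IFNAR2 (1.30) and IL13RA2 (3.54). IL13RA2, the decoy chain for IL-13, was also higher after IL-17A (1.59, adjusted p = 0.0478). LIFR fell after IFNα (by 2.07, adjusted p = 0.0155), and IL6ST was higher after both interferons (0.73 for IFNα, 0.94 for IFNγ).

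Other inhibitors of the pathway had 5 calls higher and 3 lower in 90 tests of 9 of 11 genes (5.56% and 3.33%, against 2.55% and 2.89% over all genes). USP18, the protease that blocks IFNα receptor signaling, rose from 0.245 CPM to 243 after IFNα (9.26, SE 0.90, adjusted p = 1.08e-10) and to 11.6 after IFNγ (4.88, SE 1.01, adjusted p = 0.00071). USP18 had 2.06 counts over the unstimulated libraries and 1634 in all, so it cleared the filter through groups where it was high. Its calls are therefore descriptions. PTPN2, a phosphatase that removes phosphate from JAKs and STATs, was higher after TNF (1.04, adjusted p = 0.0147) and OSM (1.11, adjusted p = 0.0208). SH2B3, an adaptor that binds JAK2, rose after IFNγ (1.24, adjusted p = 0.0237), while PTPN11 fell after IFNα (by 0.88) and IFNγ (by 0.80), and PIAS2 after IFNα (by 1.48). The 6 SOCS box partners, elongins and cullins among them, gave 1 call in 60 tests (1.67%, below the 5.45% over all genes), CUL2 after IFNγ (0.61, adjusted p = 0.0378). Among the proteins that SOCS members bind or degrade, 0 rose and 2 fell in 60 tests of 6 of 8 genes (3.33%, also below it), INSR after IFNα (by 1.41) and IRS2 after IL-13 (by 2.22, adjusted p = 0.0456). The medians of these 6 lists stood between −0.72 and 1.08 on the log2 scale, where the median of all genes tested was between −0.0461 and 0.00218.

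**Figure D4:**
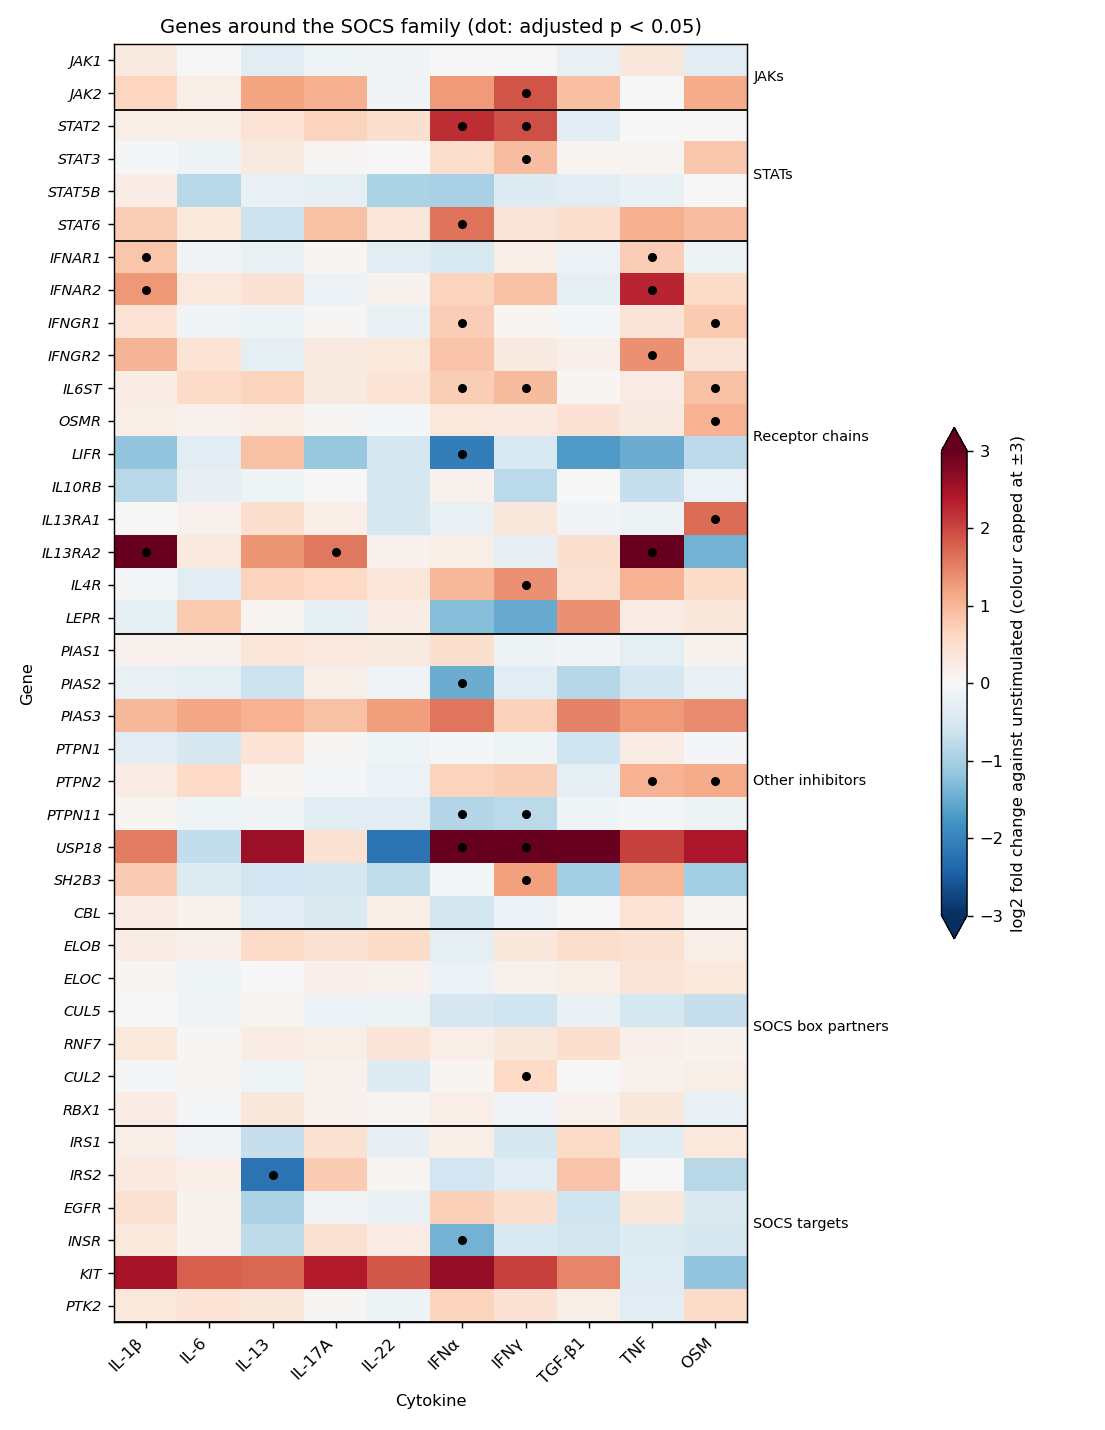
Log2 fold change against unstimulated (color, capped at ±3) of 39 tested genes around the SOCS family (rows, by role) after each cytokine (columns); a dot marks an adjusted p under 0.05. Dots are most frequent for IFNα and IFNγ and absent for IL-6, IL-22 and TGF-β1.

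For each of the 4 members with a call, the 5 genes with the most similar pattern were named by Pearson's r over the 11 group means of log2 CPM, out of 7110 genes. For SOCS3 these were C17orf67 (r = 0.91), RDH10 (0.86), IL13RA1 (0.86), C17orf80 (0.86) and AEBP1 (0.84). C17orf67 was at 6.11 ± 4.05 CPM in unstimulated cells and 87.9 ± 11.0 CPM after OSM, and the retinol dehydrogenase gene RDH10 at 290 ± 131 and 990 ± 274 CPM. C17orf80 moved little by comparison, from 15.0 ± 8.36 to 21.3 ± 5.93 CPM. For SOCS2 they were TMEM35B, TMEM50A, MRPL17, C1orf54 and the histone gene H2BC4 (r from 0.87 to 0.89), of which H2BC4 was at 12.0 CPM in unstimulated cells, 57.8 after IFNα and 58.0 after TNF.

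For SOCS5 the named genes were CUL1, a cullin of another ubiquitin ligase, CLEC2B, STAMBPL1, NSMCE4A and EXOC2 (r from 0.85 to 0.90). CLEC2B spanned the widest range of them, at 31.5 ± 14.4 CPM after IL-13, 179 ± 91.8 in unstimulated cells and 1038 ± 247 after IFNγ. For SOCS6 they were TPST1, UQCC5, DDX10, USP12 and CREBL2 (r from 0.85 to 0.88), and the RNA helicase gene DDX10 went from 31.3 ± 9.41 to 127 ± 15.9 CPM after IL-1β. Genes were picked for the highest r, so these r values are descriptions, and how high r reaches by chance was not tested. The points are group means that share the same libraries and unequal depth, and r over 44 libraries was lower for all 20 genes, at 0.15 to 0.77. Ranking on the 44 libraries kept 2 of 5 genes for SOCS2, 2 for SOCS3, 1 for SOCS5 and 0 for SOCS6.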

How the data were processed

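RNA from 44 samples of Ccd-18Co was sequenced as bulk libraries, 4 for each of 11 groups. The authors deposited estimated counts per gene symbol, made with kallisto 0.48.0 at default settings after FastQC 0.11.9 and MultiQC 1.14, without scaling. hg38 is named in the submitters' processing notes. These settings do not use strand. Which transcriptome release was used and how transcripts were summed to genes are not given in the sources used here. Of the values, 5.77% were not whole, and counts were rounded. Sharing of ambiguous reads by the estimate can move counts between overlapping or near-identical genes.

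Genes passing filterByExpr (9513) were tested with edgeR 4.0.16 (R 4.3.3) by quasi-likelihood, with TMM factors, 1 coefficient per group over all libraries, and Benjamini-Hochberg adjustment over all genes tested. SOCS1 and CISH did not pass and were tested by exact permutation. Calls needed an adjusted p under 0.05. Totals were 742173 to 2213424 counts. Patterns used log2 CPM with a prior count of 2, among genes with a mean of at least 3. Exon lengths and positions came from GENCODE (GRCh38), matching 99.23% of symbols, and start-site windows from RefSeq. Scripts were tested on simulated counts.

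All 7 members were named, with pathway genes that passed and, for each member with a call, the 5 genes of most similar pattern. Members and lists were chosen with earlier results of these data known. Replicates were compared before averaging, and of 66 pairs none were identical. Alternatives were DESeq2 1.42.0 size factors, its Wald test, other filters, the 8 libraries compared alone, a replicate block, a fold threshold and leaving out each library. No batch is given in the labels. Libraries that share a replicate number did not meet the rule set for pairing and were treated as unpaired. A pathway gene and a response gene are not reported here, and list counts leave them out.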

Additional observations from a re-analysis of the deposited data

Results flagged for a closer look

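In 58 groups of 4 libraries with more than 3 counts of a SOCS gene in at least 1 of them, 5 groups had a library whose gap to the nearest other library took up nearly the whole range (Dixon's criterion). Chance flags about 1 in 20 groups, and the criterion assumes values that are not small counts.

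SOCS3 in IL-17A replicate 1 was at 14.38 CPM from 31 counts, with the next library at 3.205 CPM. SOCS3 in TNF replicate 2 was at 5.168 CPM from 6 counts, with the next at 1.071 CPM. SOCS1 in IL-22 replicate 2 was at 7.538 CPM from 10 counts and in OSM replicate 3 at 4.003 CPM from 6 counts, each with 0 in the other 3 libraries. SOCS6 in TNF replicate 3 was at 39.76 CPM from 53 counts, with the next at 31.07 CPM. Of these libraries, IL-17A replicate 1 was also the highest of its group for SOCS6, at 52.4 CPM.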

How the results depend on the processing

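SOCS2 after IFNα and TNF, SOCS3 after OSM and SOCS3 in OSM against IL-6 passed in every fit that gave an adjusted p, leave-one-out fits included (for SOCS3 after OSM, adjusted p from 2.74e-06 to 0.00252). The leave-one-out fits kept the genes of the filter over all libraries, which SOCS3 cleared only through OSM. For SOCS3 they are therefore a description. DESeq2's Wald test gave no adjusted p for SOCS3 after OSM (unadjusted p = 1.09e-08), so that it has no count of members there. Over 16 single results and 222 refits, 200 kept direction and side of the threshold, 16 no longer passed, 6 newly passed and 0 reversed. Counts of members called changed as follows, and shares over all genes were not computed for the refits. IL-1β fell from 1 to 0 with the fold threshold and was 0 to 1 over leave-one-out fits. IL-13 rose from 1 to 2 with every gene that had a count (SOCS1 added), was 0 with the fold threshold and 0 to 1 over leave-one-out fits. IFNγ rose from 0 to 1 with DESeq2 size factors, the DESeq2 Wald test and the replicate block, and was 0 to 1 over leave-one-out fits. TGF-β1 rose from 0 to 1 with the DESeq2 Wald test. IFNα against IFNγ was 0 with the fold threshold and 0 to 1 over leave-one-out fits. TNF against IL-1β rose from 0 to 1 in its 8 libraries alone (SOCS2, adjusted p = 0.0392). The cause was not tested, except that a fold threshold can only remove calls by construction. With the longest transcript as length SOCS5 was above SOCS3 after OSM. Same-numbered libraries were treated as unpaired, as 0 of 10 comparisons had every correlation of deviations above 0.1 (−0.0865 to 0.281). Of 40 libraries 15 correlated best with their own number, and a weaker link by number was not excluded. The replicate block changed 1 of 13 counts, IFNγ above. DESeq2 size factors shifted the median of all genes by at most 0.0418 on the log2 scale. Members at few counts, SOCS1, CISH and SOCS3 outside OSM, are limited by depth, and smaller changes were not detectable. The OSM against IL-17A fits and the fit of SOCS1 and CISH with every gene kept were chosen after seeing the data.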

Other observations

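SOCS3-DT, a divergent transcript beside SOCS3 that lies outside the gene rule and was chosen after its values were seen, had 13 counts after OSM, at 1.22 to 2.96 CPM in all 4 libraries. It had 1 count after IL-22, 1 after IFNα and 0 in the other 8 groups. The OSM mean of 2.16 CPM was below the floor of 3 counts in the shallowest unstimulated library, so no fold is given. SOCS7, the eighth gene of the family, did not clear the low-count filter. It averaged 2.15 ± 0.64 CPM (SD, n = 4) in unstimulated cells and from 0.97 CPM after TNF to 3.86 CPM after IL-22.

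The response genes chosen as checks moved after the cytokines they stand for. CCL26, an eotaxin, rose from 1.21 to 908 CPM after IL-13 (log2 fold change 9.56, SE 0.61, adjusted p = 4.04e-15, edgeR). IRF1, an interferon-induced transcription factor, rose from 5.05 to 121 CPM after IFNγ (4.52, SE 0.52, adjusted p = 7.71e-09). MX1, an antiviral GTPase, rose from 2.04 to 991 CPM after IFNα (8.85, SE 0.52). NFKBIA and TNFAIP3, feedback inhibitors of NF-κB, rose after TNF (3.09, SE 0.27, and 5.42, SE 0.85) and after IL-1β (2.61, SE 0.26, and 4.52, SE 0.84). CCL26, MX1 and TNFAIP3 had 7, 13 and 7 counts over the unstimulated libraries. They cleared the low-count filter through groups where they were high, so their values are descriptions. CCL11 rose after IL-6 (1.92, SE 0.31, adjusted p = 0.00123), the 1 gene of the table that passed there.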
